A study of Mus musculus with 6 samples.

Results

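The genes described here are 40 proliferation genes, 20 that act in DNA replication and at the entry into S phase and 20 that act in mitosis. They were taken by symbol from the 44679 genes of each file, through the GENCODE annotation of GRCm38, and all 40 were found once each. They were measured in 6 tumours of B16F10, a mouse melanoma line whose tumours here are labelled as skin tumours. The 3 untreated tumours carry the treatment label none. The 3 others came from mice given vorinostat in vivo, a drug that blocks histone deacetylases, the enzymes that take acetyl groups off histones. The sources used here state no dose, schedule, strain or age of the mice. Total RNA came from tumour cell pellets, and the labels do not say that each tumour grew in a separate mouse, so p-values measure the spread between these 6 samples. No other allele, agent or genotype is named for either group. The sample titles also carry a number after the letter G that is shared by tumours 1 and 2 of a group and differs for tumour 3. No such number occurs in both groups, and its meaning is not stated. A difference between the groups that it might mark therefore cannot be told apart from treatment.

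A dividing cell copies its DNA once, in S phase, and separates the copies in mitosis. The MCM helicase is loaded on DNA by CDC6 and CDT1, switched on by CDC45 and the GINS complex, and followed by polymerases held by the clamp PCNA. Transcription of these genes is driven largely by E2F factors, which the retinoblastoma family of pocket proteins holds back. Mitotic genes are transcribed later in the cycle, through FOXM1, MYBL2 and the MuvB complex, and encode cyclin B with its kinase CDK1, the Aurora and Polo kinases, spindle motors, kinetochore proteins and the anaphase-promoting machinery. In melanoma, as in other tumours, the summed RNA of such genes is widely read as a measure of how many cells cycle. In bulk RNA, fewer cycling cells and less RNA per cycling cell cannot be told apart.

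The replication and mitosis sets differ in their promoter sequence, which the choice of members did not use. RefSeq promoter windows of GRCm38.p6, running from 250 bases before to 50 bases after the annotated start, were found for 32 of the 40 members, in 33 windows because Mcm7 has 2. Aurkb, Ccna2, Ccne2, Foxm1, Gins2, Kif20a, Mcm4 and Tpx2 had none. The motifs below were searched on both strands. The CHR, the element bound by the MuvB complex, was searched as TTTGAA or TTCGAA. The NF-Y box was searched as CCAAT, and the E2F element as TTTCCCGC, TTTGGCGC, TTTCGCGC or TTTGCCGC, words that can overlap one another. The CHR stood in 12 of 15 mitosis windows (80.0%), in 3 of 18 replication windows (16.7%) and in 19.2% of all 32851 promoter windows. The NF-Y box stood in 14 of 15 mitosis windows (93.3%), in 12 of 18 replication windows (66.7%) and in 37.4% of all windows. E2F words stood in 7 of 18 replication windows (38.9%), in those of Mcm3, Mcm5, Mcm6, Mcm7, Cdc6, Cdt1 and Pola1. Among mitosis windows 1 of 15 (6.67%) held an E2F word, that of Cdk1, beside 2.26% of all windows. A match is a description of these letters, and the background was not matched for base composition.

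The 160 bases before the annotated start are shown for 5 members to set both kinds of promoter side by side. Mcm5 and Mcm6, which encode helicase subunits, stand for the replication set. Cdk1, Top2a (the DNA topoisomerase that untangles sister chromatids) and Ube2c (the ubiquitin-conjugating enzyme of the anaphase-promoting complex) stand for the mitosis set. Capitals mark the motif words in either orientation (ATTGG is the NF-Y box read on the other strand), and each sequence runs 5′ to 3′ on the strand of its gene. The starts are those of RefSeq, which differ from the gene bounds of GENCODE, and for Cdk1 and Ube2c the stretch reaches into the gene as GENCODE bounds it. The stretches lie at chr8:75109349-75109508 (plus strand) for Mcm5, chr1:128359706-128359865 (minus) for Mcm6, chr10:69352913-69353072 (minus) for Cdk1, chr11:99024190-99024349 (minus) for Top2a and chr2:164769769-164769928 (plus) for Ube2c.
Mcm5: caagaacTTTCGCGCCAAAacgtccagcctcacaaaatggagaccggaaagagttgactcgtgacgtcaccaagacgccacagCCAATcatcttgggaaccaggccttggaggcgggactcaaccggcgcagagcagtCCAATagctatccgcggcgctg
Mcm6: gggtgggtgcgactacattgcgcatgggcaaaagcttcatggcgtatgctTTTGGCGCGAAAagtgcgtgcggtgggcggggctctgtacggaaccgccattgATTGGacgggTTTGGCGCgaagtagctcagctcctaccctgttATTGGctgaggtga
Cdk1: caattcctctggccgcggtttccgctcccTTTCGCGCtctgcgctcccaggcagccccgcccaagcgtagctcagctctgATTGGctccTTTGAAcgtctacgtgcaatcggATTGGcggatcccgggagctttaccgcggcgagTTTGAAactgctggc
Top2a: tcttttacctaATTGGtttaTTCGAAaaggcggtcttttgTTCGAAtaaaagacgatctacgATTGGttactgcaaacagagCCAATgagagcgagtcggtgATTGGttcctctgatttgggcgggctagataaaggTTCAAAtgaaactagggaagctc
Ube2c: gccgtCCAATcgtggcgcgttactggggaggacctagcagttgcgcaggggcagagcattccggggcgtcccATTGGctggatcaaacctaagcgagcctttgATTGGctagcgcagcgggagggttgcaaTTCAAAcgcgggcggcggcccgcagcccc

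Within these stretches Mcm5 held 2 overlapping E2F words and 2 NF-Y boxes, and Mcm6 held 3 E2F words, 2 of them overlapping, and 2 NF-Y boxes. Neither held a CHR. Top2a held 3 CHR words and 4 NF-Y boxes, Ube2c 1 CHR and 3 NF-Y boxes, and neither held an E2F word. Cdk1 held all 3 kinds, with 2 CHR words, 2 NF-Y boxes and 1 E2F word.

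**Figure D1:**
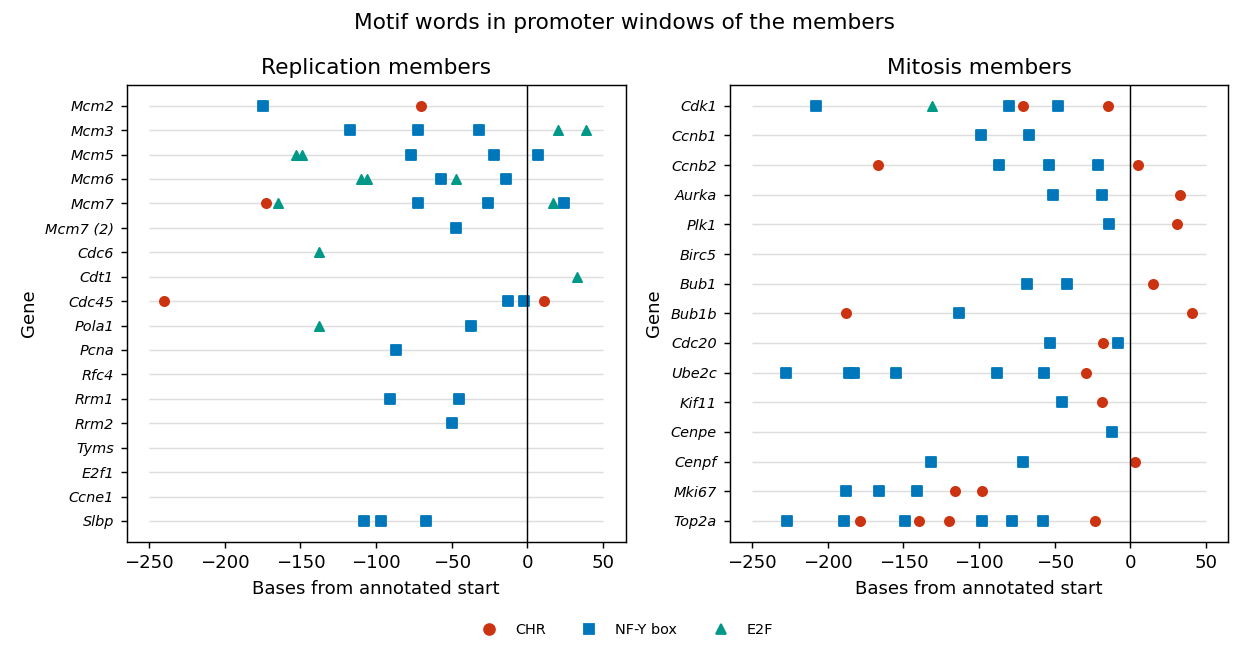
Motif words in the promoter windows of 32 members, 1 line per window; the x axis gives bases from the annotated start, circles mark the CHR, squares the NF-Y box and triangles the E2F words. Circles lie in 12 of 15 mitosis windows and in 3 of 18 replication windows, while triangles lie in 7 replication windows and 1 mitosis window.

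The libraries were unlike one another before any comparison. Between 11.3 M and 28.9 M reads were assigned to genes, and between 9116 and 30865 of these fell in the 40 members. Untreated tumour 3 had the most assigned reads but the fewest in nuclear protein-coding genes, 2.98 M. Vorinostat tumour 3 had 3.92 M in such genes, and the most were 7.37 M, in untreated tumour 1. Mitochondrial ribosomal RNA filled 55.9% of untreated tumour 3 and at most 25.3% of the others. The 13 genes that share sequence with the satellite-rich gene Gm26870 filled 22.0% of vorinostat tumour 3 and 9.83% of untreated tumour 2. Their share was slightly lower in vorinostat tumour 2 than in untreated tumour 2. It was at most 1.63% in untreated tumours 1 and 3 and vorinostat tumour 1. Levels are therefore given as CPM scaled with TMM factors, which are meant to correct library size for such a skew. The factors ran from 0.364 (untreated tumour 3) to 1.65 (vorinostat tumour 2), and whether they removed the skew was not tested. So scaled, 1491 chemoreceptor genes summed to 36.3, 39.6 and 72.3 CPM in untreated tumours 1, 2 and 3. In vorinostat tumours 1, 2 and 3 they summed to 59.3, 58.2 and 216 CPM. The smallest count of any member in any library was 50 reads, well above the 3 reads taken as the limit of detection, and all 40 members passed the filter on low counts. All 8 melanoma cell markers had reads in every library, so the labelled cell type was present. Their summed levels were 7095, 7393 and 5777 CPM in untreated tumours 1, 2 and 3. In vorinostat tumours 1, 2 and 3 they were 7993, 7601 and 5744 CPM, so tumour 3 was lowest in each group. In each group tumour 3, the 1 with a different number after G, also had the fewest nuclear protein-coding reads. Whether that number bears on these values was not tested. The melanocyte factor Mitf stood at 213 ± 15.8 against 206 ± 22.2 CPM (SD, n = 3; untreated against vorinostat), and the melanosome protein Pmel at 1799 ± 429 against 1845 ± 409 CPM.

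The levels of these genes varied from tumour to tumour within each group. Untreated tumour 3 held the lowest level of 26 of the 40 members, 12 of the replication set and 14 of the mitosis set. Vorinostat tumour 2 held the highest level of 19 members, 8 and 11 of each set. Across the 6 tumours the highest level of a member was 1.68 times its lowest in the median. The ratio ran from 1.16 times for Bub1b, which encodes a spindle checkpoint protein, to 2.49 times for Kif20a, a motor of the dividing cell's midzone. Only 5 members spanned more than 2 times.

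The mean of log2(CPM + 0.5) over the 20 replication members was 4.24, 4.43 and 3.97 for untreated tumours 1, 2 and 3. For vorinostat tumours 1, 2 and 3 it was 4.46, 4.51 and 4.155. Treated tumours thus reached slightly higher at the top, and the groups overlapped. The same mean over the 20 mitosis members was 4.68, 4.65 and 4.25 in the untreated and 4.49, 4.77 and 4.53 in the treated tumours, again with overlap. The replication mean was 0.16 higher in treated tumours (4.37 ± 0.19 against 4.21 ± 0.23, SD, n = 3) and the mitosis mean 0.07 higher (4.597 ± 0.15 against 4.53 ± 0.24), both on the log2 scale and both within 1 SD. These means carry no test, because the members were chosen with results known. Without untreated tumour 3, the difference was 0.0079 for replication and -0.10 for mitosis.

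**Figure D2:**
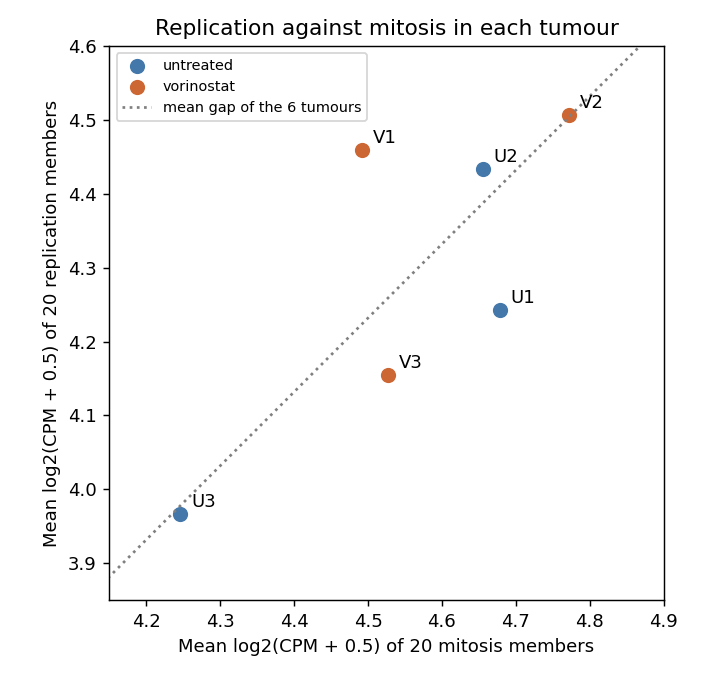
Mean log2(CPM + 0.5) of the 20 replication members against that of the 20 mitosis members; each point is 1 tumour (U untreated, V vorinostat) and the dotted line marks the mean gap between the sets. U3 lies lowest on both axes, V2 highest, and V1 lies farthest above the line.

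The tumour lowest in most members, untreated tumour 3, had the highest leukocyte, fibroblast and endothelial marker sums and the largest mitochondrial ribosomal RNA share. Untreated tumour 3 held the highest sum of 12 leukocyte markers, 132 CPM against 73.5 and 34.96 CPM in untreated tumours 1 and 2 and 62.4 to 64.0 CPM in treated ones. The 7 fibroblast markers summed to 33.9 CPM there, to 25.9 and 17.3 CPM in untreated tumours 1 and 2 and to between 11.5 and 18.6 CPM in treated ones. The 5 endothelial markers summed to between 2.98 and 10.6 CPM in untreated and between 3.88 and 9.87 CPM in treated tumours. In each group their sum was highest in tumour 3. The 4 keratinocyte markers summed to at most 1.39 and 3.14 CPM, with the lowest sum, 0.38 CPM, in untreated tumour 3. Of the markers tested, 8 of 11 leukocyte markers had an estimate below 0 (range -1.51 to 0.63), as did 6 of 7 fibroblast markers (range -2.34, for Col3a1, to 0.40) and 1 of 3 endothelial markers, and 0 were called. The leukocyte gene Ptprc stood at 17.7 ± 10.8 against 10.2 ± 2.14 CPM, the collagen gene Col1a1 at 5.96 ± 2.03 against 3.34 ± 1.70 CPM and the endothelial gene Pecam1 at 2.57 ± 1.83 against 3.02 ± 2.36 CPM. All leukocyte and fibroblast markers had reads in all 6 libraries, while Tek, Krt14, Krt1 and Krt10 were at 0 in at least 1. The part of these cells, or of the mitochondrial RNA, in the levels of the members was not tested.

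**Figure D3:**
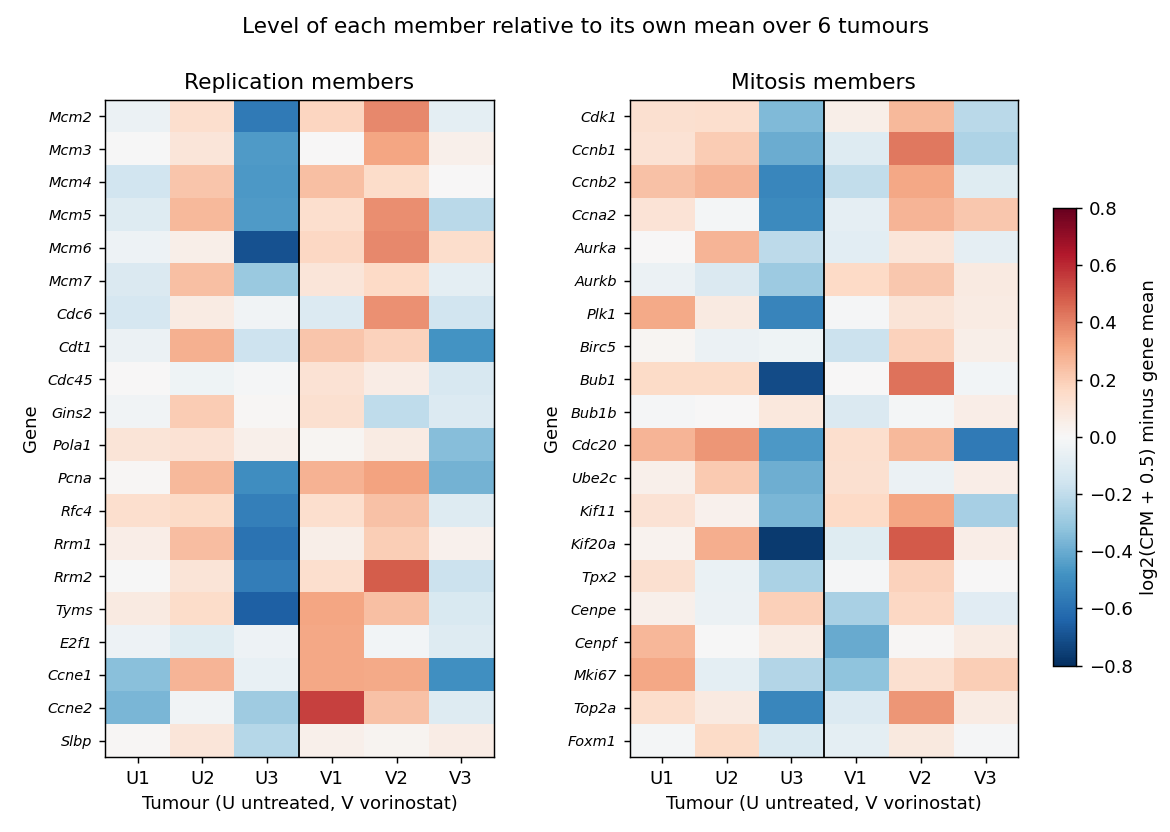
Level of each of the 40 members in each tumour as log2(CPM + 0.5) minus that gene's mean over the 6 tumours; rows are genes, columns tumours (U untreated, V vorinostat), red above and blue below the mean. The column of U3 is the bluest in both panels, where 12 replication and 14 mitosis members had their lowest level, and Bub1b and Cenpe are exceptions with their highest level there.

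The question put to single genes was whether vorinostat tumours differed from untreated ones. No member was called: with edgeR (quasi-likelihood F test, Benjamini-Hochberg adjusted p under 0.05) the count was 0 of 40, beside 0% of all 14776 genes tested. DESeq2 called 0 members as well. At an unadjusted p under 0.05 there was 1 higher member, Ccne2, and 0 lower ones, where 3.36% and 2.92% of all genes fell. Fitted log2 fold changes ran from -0.22 for Cenpf to 0.52 for Ccne2, with standard errors between 0.13 and 0.26. The 95% intervals of all 40 members, not adjusted for their number, lay between -0.67 and 0.995, so each stayed short of a 2-fold difference (1 on the log2 scale). The interval held 0 for 39 of them. The plot of fold changes shows these intervals.

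Of the 20 replication members 17 had a fold change above 0 and 3 below, with a median of 0.15, beside a median of 0.03 over all genes tested. For the mitosis set these numbers were 12, 8 and 0.05. Over all genes, 45.9% had a fold change below 0. That median moved with the filter: with no filter on low counts it was 0.22, and the replication and mitosis medians, 0.09 and -0.01, then lay below it. Without untreated tumour 3 the replication median was 0.03 with 8 members below 0, and the mitosis median -0.09 with 16 below 0. Group ranges did not overlap for 2 members with treated tumours higher, Mcm6 and Aurkb, where 6.53% of all genes separated that way. They separated with treated tumours lower for 0 members, beside 5.53% of all genes.

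**Figure D4:**
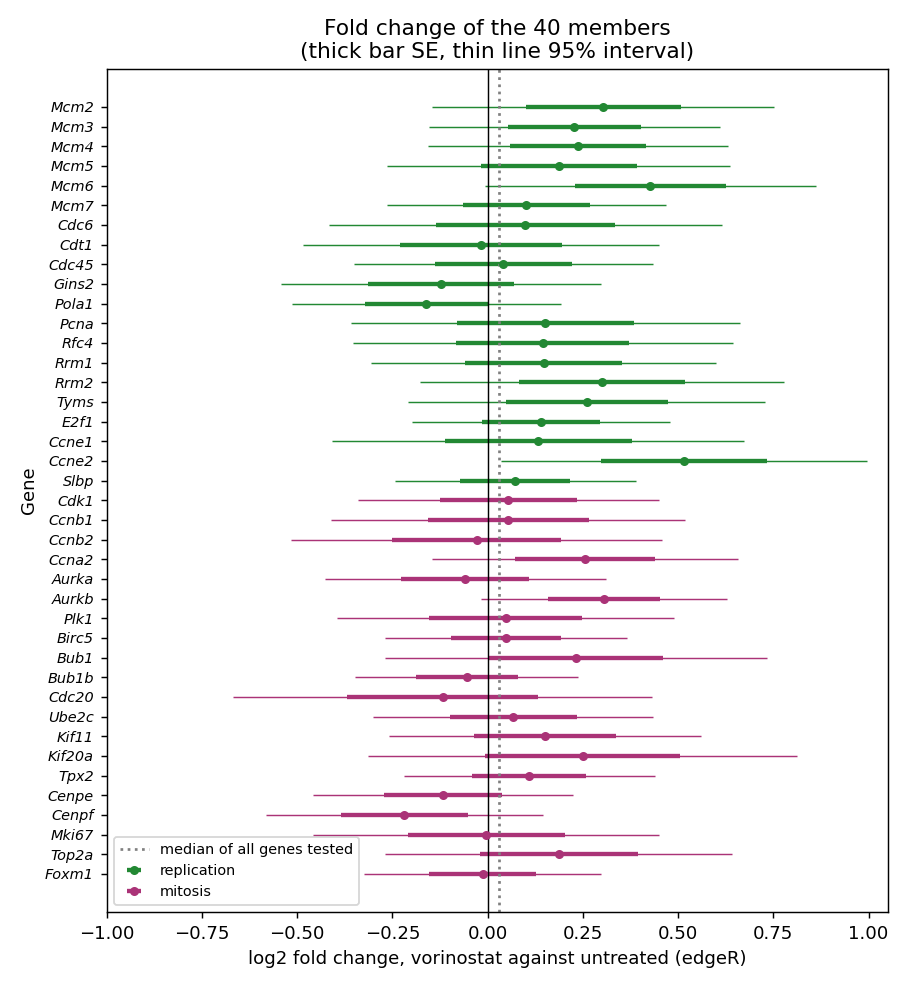
Fitted log2 fold change of each member, vorinostat against untreated, from edgeR; points are estimates, thick bars standard errors, thin lines 95% intervals, and the dotted line the median of all genes tested. Every interval lies between -0.67 and 0.995, and 17 of the 20 replication members (green) and 12 of the 20 mitosis members (purple) have estimates above 0.

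Genes of helicase loading had 7 of 8 estimates above 0, with a median of 0.21. Mcm6 (chromosome 1 from 128331590 to 128359664, minus strand) encodes a helicase subunit. In tumour order it stood at 42.4, 45.1 and 26.6 CPM without treatment and at 49.0, 56.9 and 48.1 CPM with vorinostat. No treated tumour reached down to the untreated range. The estimated log2 fold change was 0.43 (SE 0.20; edgeR adjusted p 0.743), which shrank to 0.21 with untreated tumour 3 left out.

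Mcm2 (chromosome 6 from 88883474 to 88898780, minus strand), a subunit often stained as a marker of cells able to replicate, stood at 65.5, 74.3 and 45.5 CPM in untreated tumours. In treated tumours it stood at 76.4, 88.4 and 64.0 CPM. The ranges overlapped between untreated tumours 1 and 2 and vorinostat tumour 3 (log2 fold change 0.30, SE 0.20, edgeR adjusted p 0.767). With untreated tumour 3 left out the estimate was 0.11. The other helicase subunits Mcm3, Mcm4, Mcm5 and Mcm7 had estimates of 0.23, 0.24, 0.19 and 0.10. When each library was left out in turn they ran from 0.058 to 0.31 (Mcm3), 0.071 to 0.41 (Mcm4), 0.015 to 0.37 (Mcm5) and -0.029 to 0.25 (Mcm7), lowest without untreated tumour 3. Cdc6, which recruits the helicase to origins, stood at 5.13 ± 0.395 against 5.46 ± 1.24 CPM. Cdt1, its partner, stood at 12.02 ± 2.10 against 11.8 ± 3.07 CPM, the 1 member of this role with an estimate below 0 (-0.02).

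The helicase activators and the replication machinery stood close between the groups. Cdc45 stood at 7.02 ± 0.09 against 7.19 ± 0.66 CPM, and Gins2, a subunit of the GINS complex, at 7.35 ± 0.69 against 6.73 ± 0.88 CPM. Pcna (chromosome 2 from 132249162 to 132253314, minus strand), the sliding clamp, stood at 68.4, 81.2 and 48.0 CPM in untreated and at 82.3, 85.1 and 52.2 CPM in treated tumours. Its low values came from the tumour numbered 3 in both groups, and the ranges overlapped (log2 fold change 0.15, SE 0.23). Rfc4, a subunit of the clamp loader, had an estimate of 0.15. Pola1, the catalytic subunit of the primase-bound polymerase, had the lowest estimate of the replication set, -0.16, at 13.2 ± 0.38 against 11.7 ± 1.78 CPM.

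All 3 genes of nucleotide supply had estimates above 0. Rrm2, the regulated subunit of ribonucleotide reductase, stood at 62.3 ± 14.2 against 76.8 ± 17.6 CPM (0.30), its partner Rrm1 at 59.7 ± 16.9 against 66.3 ± 4.20 CPM (0.15), and Tyms, thymidylate synthase, at 14.6 ± 4.16 against 17.5 ± 2.81 CPM (0.26). Without untreated tumour 3 these estimates were 0.11, -0.08 and 0.04, in the same order. Slbp, which binds histone messenger RNA, stood at 15.9 ± 1.86 against 16.8 ± 0.20 CPM.

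Among the genes of S phase entry, Ccne2 (chromosome 4 from 11191351 to 11204779, plus strand) had the largest estimate of the 40. It encodes cyclin E2, which activates the kinase CDK2. It stood at 5.46, 7.03 and 5.80 CPM in untreated and at 10.7, 8.55 and 6.64 CPM in treated tumours. Vorinostat tumour 3 lay below untreated tumour 2, so the ranges overlapped. The log2 fold change was 0.52 (SE 0.22, unadjusted p 0.0373, edgeR adjusted p 0.743), with estimates between 0.32 and 0.66 when each library was left out in turn. Ccne1, which encodes cyclin E1, stood at 7.17, 11.2 and 8.75 CPM in untreated and at 11.5, 11.4 and 6.37 CPM in treated tumours, the lowest and the highest level both in the treated group (log2 fold change 0.13, SE 0.25). E2f1, the factor that drives much of this set, stood at 16.1 ± 0.39 against 17.7 ± 2.85 CPM.

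**Figure D5:**
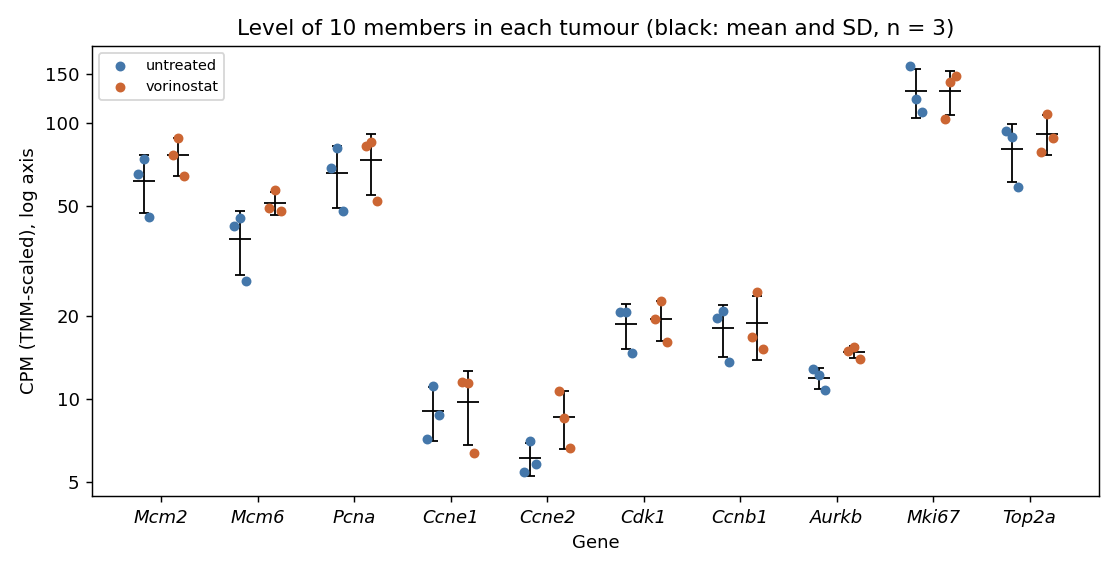
Level of 10 members in each tumour as TMM-scaled CPM on a log axis; points are tumours (blue untreated, orange vorinostat), black marks the mean and bars the SD, n = 3. The groups separate for Mcm6 and Aurkb and overlap for the other 8 genes.

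In the mitosis set the kinase that starts mitosis and its cyclins overlapped between the groups. Cdk1 (chromosome 10 from 69335146 to 69352938, minus strand) stood at 20.6, 20.7 and 14.7 CPM in untreated and at 19.4, 22.7 and 16.1 CPM in treated tumours. Ccnb1 (chromosome 13 from 100778650 to 100786570, minus strand), which encodes cyclin B1, stood at 19.6, 20.9 and 13.6 CPM and at 16.8, 24.4 and 15.2 CPM. In both genes the lowest tumour was untreated and the highest treated, with estimates of 0.05 (SE 0.18 and 0.21). Ccnb2, the second B-type cyclin, had an estimate of -0.03 and Ccna2, the cyclin of S phase and early mitosis, 0.26 (0.067 to 0.35 with a library left out).

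Aurkb (chromosome 11 from 69045647 to 69051664, plus strand) encodes the kinase of the chromosomal passenger complex, which corrects the attachment of chromosomes to the spindle. It stood at 12.8, 12.2 and 10.8 CPM in untreated and at 14.9, 15.5 and 14.0 CPM in treated tumours. The lowest treated tumour lay above the highest untreated one. The log2 fold change was 0.31 (SE 0.15, edgeR adjusted p 0.743), and it lay between 0.22 and 0.34 when each library was left out. Its partner Birc5, which encodes survivin, stood at 19.7 ± 0.49 against 20.4 ± 2.56 CPM. Aurka, the centrosomal Aurora kinase, and Plk1, the Polo kinase, had estimates of -0.06 and 0.05.

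The checkpoint and anaphase genes pointed in no shared direction. Bub1, a checkpoint kinase of the kinetochore, stood at 20.4 ± 6.43 against 24.1 ± 4.61 CPM, and Bub1b at 20.6 ± 0.76 against 19.9 ± 1.20 CPM. Cdc20, the activator of the anaphase-promoting complex, stood at 14.8 ± 4.27 against 13.6 ± 3.94 CPM, and Ube2c at 23.9 ± 4.96 against 25.2 ± 1.52 CPM. Their estimates were 0.23, -0.05, -0.12 and 0.07. Among spindle genes, the motors Kif11 and Kif20a had estimates of 0.15 (0.0028 to 0.29 with a library left out) and 0.25 and the spindle assembly factor Tpx2 0.11. The large kinetochore proteins Cenpe and Cenpf had estimates of -0.12 and -0.22.

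Mki67 (chromosome 7 from 135689784 to 135716361, minus strand), which encodes the Ki-67 antigen used to stain cycling cells, had almost equal group means, 131 ± 26.3 against 131 ± 24.1 CPM. Its levels were 160, 122 and 110 CPM in untreated and 103, 141 and 148 CPM in treated tumours. The lowest of all was vorinostat tumour 1 and the highest untreated tumour 1. The log2 fold change was -0.00319 with an SE of 0.21 and a 95% interval of -0.46 to 0.45. Top2a (chromosome 11 from 98992943 to 99024189, minus strand) stood at 93.1, 88.7 and 58.5 CPM in untreated and at 78.1, 108 and 88.1 CPM in treated tumours, with overlap and an estimate of 0.19 (SE 0.21). Foxm1, the factor that drives mitotic genes, stood at 31.5 ± 3.09 against 31.3 ± 1.70 CPM.

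The contrast of the sets within a tumour largely cancels how libraries are scaled. The replication mean minus the mitosis mean was -0.44, -0.22 and -0.28 on the log2 scale for untreated tumours 1, 2 and 3. For vorinostat tumours 1, 2 and 3 it was -0.03, -0.27 and -0.37. The groups overlapped, at -0.31 ± 0.11 against -0.22 ± 0.17 (SD, n = 3), a difference of 0.09. Both tumours numbered 1 lay at the ends. In untreated tumour 1, 17 of 20 mitosis and 7 of 20 replication members lay above their own mean over the tumours. In vorinostat tumour 1, 19 of 20 replication and 6 of 20 mitosis members lay above their mean. Without vorinostat tumour 1 the difference between groups was -0.0067, and without untreated tumour 1 it was 0.03. With both tumours 3 left out it was 0.18, and with the satellite share of reads as a covariate 0.15. By promoter class, the median estimate was 0.05 over the 15 members with a CHR (range -0.22 to 0.30) and 0.14 over the 17 without (range -0.16 to 0.43). As 12 of those 15 members belong to the mitosis set, this split largely repeats that of the sets. For the NF-Y box the medians were 0.07 over 25 members with it and 0.13 over 7 without. For E2F words they were 0.10 over 8 with and 0.07 over 24 without.

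Compared per length, as TPM, the members covered a wide range of levels. Averaged over the 6 tumours, Pcna led with 35.9 TPM and held the first rank in every tumour, followed by Rrm2 at 23.6 and Ube2c at 20.96 TPM. Cdc6 was lowest at 0.97 TPM, again in every tumour, after Pola1 at 1.503 TPM. Within a tumour TPM compares genes, but between tumours it moves with the RNA that fills a library: the level of Pcna ran from 8.56 to 63.8 TPM. The 6 subunits of the MCM helicase, which assemble in equal numbers, were unequal in RNA. Mcm2 averaged 14.2 TPM, Mcm6 11.1, Mcm7 10.03, Mcm3 7.46, Mcm5 5.57 and Mcm4 4.29 TPM. Within each tumour Mcm2 was between 3.03 and 3.81 times Mcm4, and Mcm3, Mcm5 and Mcm4 held the last places among the subunits, in that order, in all 6.

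Most members varied together from tumour to tumour, and a few did not. Over the 6 tumours, the median Pearson correlation of log2 CPM was 0.61 over 190 pairs within the replication set, 0.59 over 190 pairs within the mitosis set and 0.49 over 400 pairs across the sets. These values describe 6 libraries that share their scaling, and untreated tumour 3, low in most members, is 1 of the 6 points. Mcm5 followed the mean of the other replication members most closely (r = 0.97), with Pcna (0.97) and Mcm2 (0.96). In the mitosis set Ccnb2 (0.97), Top2a (0.97) and Bub1 (0.97) did. Bub1b (-0.39), Cenpe (-0.07) and Cenpf (0.13) did not follow their set, nor did Gins2 (0.10) in the other. The next lowest values were those of Pola1 (0.30), E2f1 (0.35) and Cdc6 (0.48), all in the replication set. In untreated tumour 3, relative to the mean of the other untreated tumours, Kif20a lay 0.93 and Bub1 0.87 lower on the log2 scale (log2 differences -0.93 and -0.87). Cenpe lay 0.20 and Bub1b 0.09 higher, and Birc5, Cdc6, Cdc45, Ccne1 and E2f1 lay within 0.04 of that mean.

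Other genes of the same pathways were taken from lists of further members. Of 41 other replication genes 0 were called in either direction, 30 had an estimate above 0, and the median was 0.17. How many stayed above 0 without untreated tumour 3, low in most members, was not counted. Dut, which removes dUTP, averaged 19.5 ± 2.38 and 24.7 ± 3.00 CPM in untreated and treated tumours (0.34, SE 0.15), and Pold2, a subunit of the lagging-strand polymerase, at 14.4 ± 3.06 against 19.1 ± 3.53 CPM (0.41, SE 0.19). On the other side Dbf4, the activator of the CDC7 kinase, had an estimate of -0.19 and Rpa2, a single-strand binding protein, -0.29. Group ranges of 2 of the 41, Gmnn and Wdhd1 (named after their values were seen), separated with treated tumours higher, which is fewer than the 6.53% of all genes would give.

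Of 40 other mitosis genes 0 were called, 34 had an estimate above 0, and the median was 0.10. The number above 0 without untreated tumour 3 was not counted here either. Group ranges of 1 of the 40, Kif22 (named after its values were seen), separated with treated tumours higher, beside 6.53% of all genes. They separated with treated tumours lower for 0 genes of this list, beside 5.53% of all genes. Pttg1, which encodes securin, stood at 5.38 ± 1.12 against 7.37 ± 1.73 CPM (0.45, SE 0.24), and Kif23, a motor of the midzone, had an estimate of 0.27. Cdc25b, the phosphatase that activates CDK1, had -0.15. Incenp (chromosome 19 from 9872296 to 9899551, minus strand), which encodes the scaffold that holds Aurora B and survivin, had the lowest estimate of the list. It stood at 40.6, 19.8 and 83.6 CPM in untreated and at 18.3, 24.2 and 26.1 CPM in treated tumours. Untreated tumours 1 and 3 were high, and untreated tumour 2 lay within the treated range. The log2 fold change was -1.07 (SE 0.39, edgeR adjusted p 0.743). It was called lower by edgeR without untreated tumour 2 and with no filter on low counts, as the 1 gene of this list in each case. Without untreated tumour 3 the estimate was -0.45, with both tumours 3 left out -0.50, and on log2(TPM + 1) -0.27, with no call.

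The regulators above both sets showed 0 calls among 18 genes, 10 of them with an estimate above 0 and a median of 0.01. E2f7, an E2F that represses its targets, stood at 4.604 ± 0.68 against 6.92 ± 1.87 CPM (0.59, SE 0.26, unadjusted p 0.0416). The pocket protein gene Rbl1 stood at 15.9 ± 2.89 against 19.3 ± 0.44 CPM (0.28, SE 0.16). Tfdp2, a partner of E2F factors, averaged 11.4 ± 0.72 against 9.61 ± 0.88 CPM (-0.24, SE 0.16), and E2f4 had an estimate of -0.23, which was 0.0074 with both tumours 3 left out. Group ranges separated for 2 of the 18, Tfdp2 lower and E2f6 (named after its values were seen, 7.35 ± 0.55 against 8.65 ± 0.52 CPM) higher in treated tumours, beside 5.53% and 6.53% of all genes. None of these passed the adjusted threshold.

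The reads of some members could be shared with other genes. Cdt1 overlaps the predicted gene Gm20388 on the same strand, whose reads came to 12.7% of those of Cdt1. Foxm1 overlaps Tex52 in the same way, at 1.13%. The pseudogenes of Pcna, Ccnb1 and Ccnb2 that carry their symbols held at most 1.09% of the reads of their parent gene. On the other strand 10 members overlap a gene with reads. Set against the reads of the member, those of the neighbour came to 633% for Rfc4 (Eif4a2), 229% for Gins2 (Gse1), 155% for Ccne2 (Ints8) and 138% for Cdc45 (Ufd1). They came to 85.6% for Mcm7 (Cops6), 83.9% for Cdc20 (Elovl1), 72.6% for Kif20a (Cdc23) and 23.5% for Ccna2 (Exosc9), and to at most 4.18% for Slbp and Pola1. The library kit is stranded per the labels, and the sources used here do not say whether the quantification used the strand, so the levels of these members are uncertain to that extent.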

How the data were processed

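Total RNA sequencing of 6 tumours was used as deposited. Libraries were made with a stranded kit and read as pairs of 150 bases, per the labels' protocols; FastQC, Trim Galore and Salmon and the build GRCm38 are named in the submitters' processing notes, without versions. The deposited files give, per the file headers, Salmon's estimated counts and TPM values per gene; the estimated counts were rounded for the tests, and the TPM deposited by the authors were used to compare genes and in alternatives. Symbols came from GENCODE M21 (44118 of 44679 identifiers).

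The test was edgeR 4.0.16 (R 4.3.3): quasi-likelihood F test, TMM factors, filterByExpr (14776 genes kept), treatment as the only term, two-sided, Benjamini-Hochberg over all genes tested, threshold 0.05. Standard errors were derived from the F statistic, and CPM use TMM factors. DESeq2 1.42.0 and limma 3.58.1 on log2(TPM + 1) and log2(TPM + 0.1) were alternatives, with other scaling, filters and left-out libraries. Satellite genes are 13 that share at least 0.2 of their 25-base words with Gm26870. The members and lists were chosen with earlier results of these data known. Named are all members, and for each pathway list, the 2 lowest p-values among higher and among lower genes, with markers. Replicate numbers follow sample order and pair nothing. Precision is limited by 3 tumours per group. Depth is 11.3 M to 28.9 M assigned reads, but only 2.98 M to 7.37 M in nuclear protein-coding genes.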

Additional observations from a re-analysis of the deposited data

How the results depend on the processing

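No member was called in any of the 15 alternatives; their smallest adjusted p was 0.242, for Mcm6 without untreated tumour 2. DESeq2, its size factors in edgeR, a filter of 1 CPM in 3 libraries, and leaving out mitochondrial and ribosomal RNA reversed no member. All genes called numbered 156 with no filter, 6 in DESeq2, 41 with limma on log2(TPM + 0.1), and between 0 and 121 when a library was left out (1 without untreated tumour 3, 121 without untreated tumour 2). Among other mitosis genes the count was 1 with no filter and between 0 and 1 with a library left out. The differences of the set means were 0.53 (replication) and 0.44 (mitosis) on log2(TPM + 1), and 0.66 and 0.57 on log2(TPM + 0.1). The medians of the estimates were 0.55 and 0.46 beside 0.26 for all genes on the first scale, and 0.69 and 0.62 beside 0.51 on the second, above that of all genes on both. With no filter and in DESeq2 the medians lay below it (0.09 and -0.01 beside 0.22, and 0.11 and 0.02 beside 0.26). In these settings low-count genes enter the median of all genes. The medians of the members moved as well, from 0.15 and 0.05 in the main fit, and the cause was not tested.

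Signs of small estimates turned in several settings, and the cause was not tested. On log2(TPM + 1) these were Cdt1 0.33, Gins2 0.14, Pola1 0.18, Ccnb2 0.42, Aurka 0.49, Bub1b 0.33, Cdc20 0.31, Cenpe 0.45, Mki67 0.43 and Foxm1 0.54, and on log2(TPM + 0.1) 0.46, 0.15, 0.33, 0.53, 0.64, 0.43, 0.42, 0.70, 0.51 and 0.69. With no filter they were Cdc45 -0.021, Cdk1 -0.0033, Ccnb1 -0.00093, Plk1 -0.023, Birc5 -0.022 and Ube2c -0.0020. With both tumours 3 left out they were Cdt1 0.10, Rrm1 -0.011, Slbp -0.00080, Plk1 -0.13 and Ube2c -0.064, and with the satellite share as a covariate Cdt1 0.070.

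Leaving out 1 library turned the sign of 24 members, with these ranges of estimates: Aurka -0.18 to 0.057, Birc5 -0.066 to 0.14, Bub1 -0.018 to 0.34, Ccnb1 -0.20 to 0.18, Ccnb2 -0.26 to 0.076, Ccne1 -0.045 to 0.34, Cdc20 -0.34 to 0.083, Cdc45 -0.019 to 0.10, Cdc6 -0.13 to 0.19, Cdk1 -0.10 to 0.16, Cdt1 -0.15 to 0.17, E2f1 -0.0082 to 0.22, Foxm1 -0.099 to 0.042, Kif20a -0.010 to 0.45, Mcm7 -0.029 to 0.25, Mki67 -0.15 to 0.14, Pcna -0.044 to 0.34, Plk1 -0.17 to 0.21, Rfc4 -0.063 to 0.23, Rrm1 -0.084 to 0.30, Slbp -0.038 to 0.12, Top2a -0.020 to 0.28, Tpx2 -0.0061 to 0.18 and Ube2c -0.11 to 0.17. In 12 members no alternative turned the sign. With 3 tumours a group, the unadjusted intervals given limit the precision. For the genes named from other lists, the same settings were added after seeing the data. Dbf4, Rpa2, Cdc25b, Tfdp2 and E2f4 turned to 0.29, 0.31, 0.27, 0.37 and 0.22 on log2(TPM + 1) and to 0.39, 0.41, 0.36, 0.60 and 0.29 on log2(TPM + 0.1), and Rpa2 and E2f4 to 0.021 and 0.0074 with both tumours 3 left out. No paired analysis was possible because replicate numbers only follow sample order and no title number after G occurs in both groups.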
